A study of Mus musculus with 4 samples.

Results

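The gel-forming and membrane mucins other than Muc19 were examined in RNA sequencing counts of the mouse sublingual gland. The members were taken by gene symbol from a list of 10 mucin genes, and 9 of them were rows among the 24411 genes counted. These were 4 gel-forming mucins (Muc2, Muc5ac, Muc5b and Muc6) and 5 membrane mucins (Muc1, Muc4, Muc13, Muc15 and Muc20). Muc16, also on the list, was not analysed here. Whole sublingual glands came from female C57BL/6J mice carrying the genotype Nkx2.3-/-, a knockout of the homeobox gene Nkx2-3, with 2 libraries at 8 weeks of age (replicates 1 and 2) and 2 at 32 weeks (replicates 3 and 4). No library with intact Nkx2-3 was analysed here, so every value describes the knockout gland, and the labels give neither the deleted part of the gene nor whether glands were pooled. Separate animals are not named in the labels, so p-values measure only the spread between these libraries, which may be technical.

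Mucins are large glycoproteins whose central stretches, rich in proline, threonine and serine, carry dense O-linked sugars. Gel-forming mucins are secreted, are joined end to end through cysteine-rich domains, and give mucus its viscosity. Membrane mucins stay anchored in the apical membrane of epithelial cells, where they form the glycocalyx, and several of them bind signalling receptors through their extracellular or cytoplasmic parts. In the rodent sublingual gland the gel-forming mucin of the mucous acinar cells is Muc19, while Muc5b is the main secreted mucin of human saliva.

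Total counts per library ran from 12925869 to 16484772, and 1 read was worth 0.0582 to 0.0738 CPM (counts scaled to a common library total, after normalization by the trimmed mean of M values, TMM). A count of 0 allows up to 3 reads at a one-sided confidence of 95%, which is 0.174 to 0.221 CPM by library. The intervals given for single counts are two-sided at 95%, so their upper bound for a count of 0 is higher, at 3.69 reads, and both cover counting error only. Nkx2-3 itself had 31 and 28 reads at 8 weeks and 21 and 29 reads at 32 weeks, and since the deleted bases are unknown these reads do not check the labels. The labelled tissue was checked on its mucous acinar markers, of which 8 of 12 passed the filter on low counts. Of the others, Tff2 had 1 read in all, Foxa3 had 0 to 2 and St6galnac1 1 to 6 reads a library, and Ern2 had none. The summed level of the 12 markers was 13800 to 22030 CPM, most of it Muc19. Libraries also stood apart within an age: the summed level of B cell and plasma cell markers was 948 and 78.4 CPM in the 8-week libraries and 533 and 825 CPM in the 32-week libraries. Amy1, on the list of serous and demilune markers, had 2059 and 29 reads at 8 weeks and 29 and 28 reads at 32 weeks. All 3 tested adipocyte markers were highest in 8-week replicate 1, against 24.9% of all genes tested. Whether tissue other than the sublingual gland was included in a library was not tested.

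Of the reads of Muc19 and the 9 members, almost all belonged to Muc19. Among the members, only Muc1 and Muc20 rose above the counting limit in every library. The 9 members together received 28 and 121 reads at 8 weeks and 39 and 69 reads at 32 weeks. Muc19 received 162898 and 200862 reads at 8 weeks and 293384 and 287485 reads at 32 weeks. The members' share was taken over their own reads and those of Muc19, without Smgc and other mucin-like genes described later. At 8 weeks it was 0.0172% in replicate 1 (95% Wilson interval 0.0119% to 0.0248%) and 0.0602% in replicate 2 (0.0504% to 0.0719%). At 32 weeks it was 0.0133% in replicate 3 (0.00972% to 0.0182%) and 0.0240% in replicate 4 (0.0190% to 0.0304%). The share was highest in 8-week replicate 2, and the interval of 8-week replicate 1 overlapped those of both 32-week libraries. Over all 4 libraries, membrane mucins held 239 of the 257 reads and gel-forming mucins 18. Muc1 and Muc20 alone held 202 reads, or 78.6%.

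**Figure D1:**
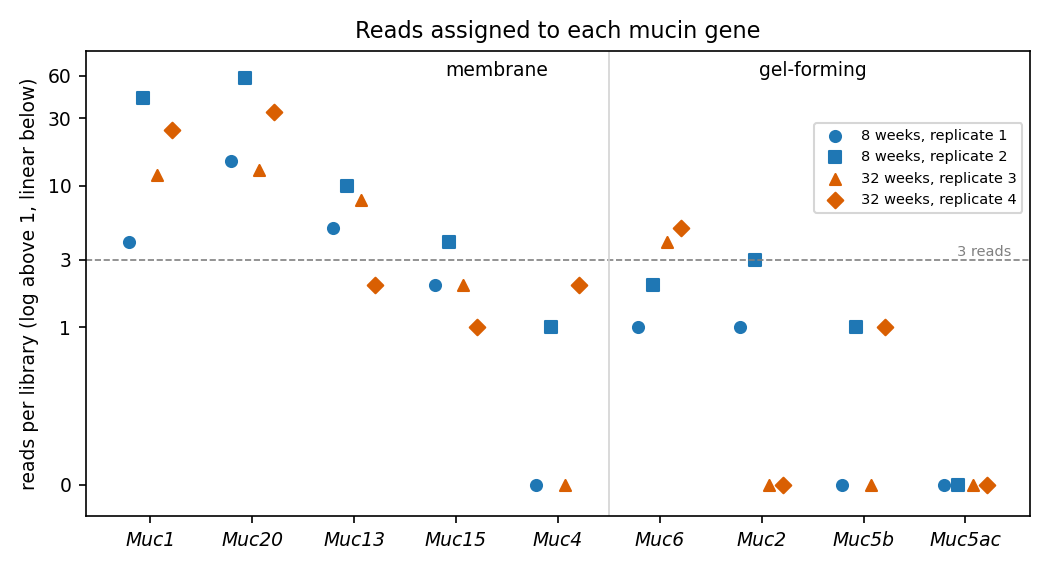
Reads assigned to each of the 9 mucin genes (horizontal axis) in each library (vertical axis, logarithmic above 1 read and linear below), with colour for age and symbol for replicate. The dashed line marks the 3 reads that a count of 0 allows, and only Muc1 and Muc20 lie above it in all 4 libraries.

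The gel-forming mucins were at or near the limit of counting. On chromosome 7 (mouse build NCBIM37, the assembly that mm9 names) they form a cluster in the order Muc6, Muc2, Muc5ac and Muc5b, with gaps of 35049, 34281 and 19838 bases between neighbours. Muc5b (chr7:149024975-149058990, plus strand), the mucin that dominates human saliva, had 0 and 1 reads at 8 weeks and 0 and 1 reads at 32 weeks. Muc5ac (chr7:148974877-149005136, plus strand), known from airway and stomach surface cells, had 0 reads in all 4 libraries. By the 3-read limit its level could be up to 0.221 CPM in the shallowest library (0.272 CPM by the two-sided interval), and no age difference in it or in Muc5b was detectable at this depth.

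Muc6 and Muc2 had a few reads, and for each the counts of the ages did not overlap. Muc6 (chr7:148819871-148841218, minus strand), a mucin of gastric and duodenal glands, had 1 and 2 reads at 8 weeks and 4 and 5 reads at 32 weeks. The exact Poisson intervals of these counts overlapped, from 0.0253 to 5.57 reads for a count of 1 and from 1.62 to 11.7 reads for a count of 5. Muc2 (chr7:148876268-148940595, plus strand), the goblet cell mucin of the intestine, had 1 and 3 reads at 8 weeks and none at 32 weeks, so its counts at both ages were within the limit that a count of 0 allows. Of the 8 members with reads, these 2 had ages that did not overlap in counts, and with Muc15, described later, 3 did not overlap in CPM. Among the 18104 genes with at least 1 read, 26.8% had both libraries of an age above both of the other in CPM, 13.5% higher and 13.3% lower at 32 weeks. In NCBIM37, 40200 of the 64328 bases of the Muc2 gene span (62.5%) are unsequenced (N), so reads from that stretch could not be placed on this assembly.

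Among the membrane mucins, Muc1 and Muc20 differed more between the libraries of an age than between the ages. Muc1 (chr3:89032979-89037303, plus strand, 7 merged exons) encodes the epithelial mucin whose cytoplasmic tail binds beta-catenin and whose extracellular part is shed from the cell surface. It had 4 and 42 reads at 8 weeks and 12 and 25 reads at 32 weeks, or 0.295 and 2.90 CPM and 0.830 and 1.45 CPM. 8-week replicate 2 was thus the highest library and 8-week replicate 1 the lowest, 9.83-fold apart, and the 32-week libraries lay between them. The 95% counting interval was 0.0804 to 0.756 CPM in 8-week replicate 1 and 2.09 to 3.92 CPM in 8-week replicate 2, so the gap within the age exceeded counting error.

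Muc20 (chr16:32777505-32797521, minus strand, 5 merged exons) encodes a membrane mucin known to bind the hepatocyte growth factor receptor Met. It had 15 and 58 reads at 8 weeks and 13 and 33 reads at 32 weeks, or 1.11 and 4.00 CPM and 0.899 and 1.92 CPM. As for Muc1, 8-week replicate 2 was the highest library and 32-week replicate 4 the next, while the lowest was 32-week replicate 3, 4.46-fold under the highest. The ages overlapped for Muc20 as they did for Muc1.

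**Figure D2:**
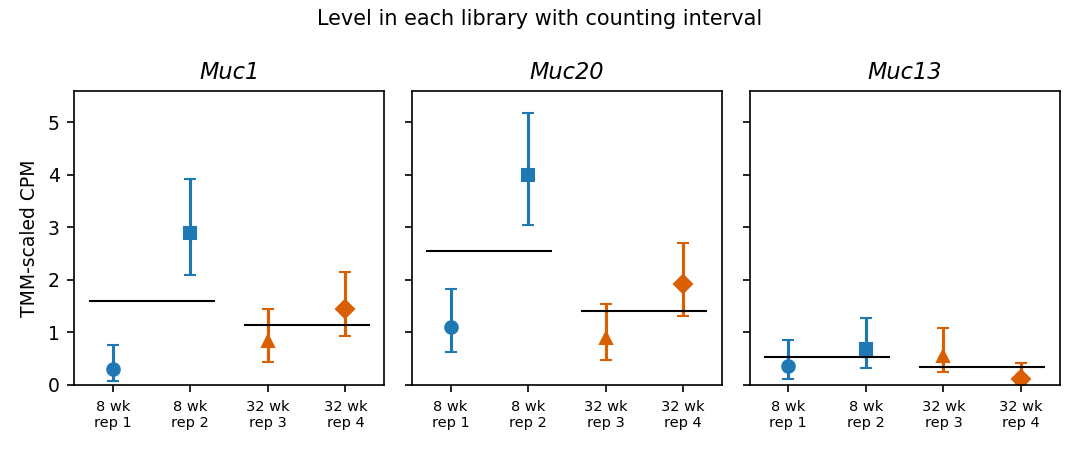
TMM-scaled CPM (vertical axis) of Muc1, Muc20 and Muc13 in each library (horizontal axis), where bars are exact 95% Poisson intervals for counting error and black lines are the mean of each age. In Muc1 and Muc20, 8-week replicate 2 stands above all other libraries and the ages overlap.

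Neither gene passed the test of the age comparison. Only Muc1 and Muc20 passed the filter on low counts, and a gene can pass it through a single age. The mean of Muc1 was 1.60 ± 1.84 CPM (SD, n = 2) at 8 weeks and 1.14 ± 0.442 CPM at 32 weeks, with a log2 fold change of 32 over 8 weeks of -0.48 (SE 0.84, 95% interval -2.45 to 1.49, adjusted p = 0.999 by edgeR's quasi-likelihood test). For Muc20 the means were 2.56 ± 2.05 CPM at 8 weeks and 1.41 ± 0.722 CPM at 32 weeks, with a log2 fold change of -0.85 (SE 0.64, interval -2.35 to 0.66, edgeR adjusted p = 0.999). Of all 12810 genes tested, 0 (0%) passed at an adjusted p of 0.05, with 174 at an unadjusted p under 0.05, and 0 of the 2 members reached that unadjusted p. DESeq2 called 0 of the 8 members it fitted (0 at an unadjusted p under 0.05), and 3 of 18104 genes (0.0166%). The intervals of both genes span 0 widely, so these p-values do not show that the levels stayed the same.

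The sign of both differences rested on 8-week replicate 2. Without that library the log2 fold change was 1.94 for Muc1 (edgeR adjusted p = 0.980) and 0.37 for Muc20 (edgeR adjusted p = 0.982). Without 8-week replicate 1 it was -1.32 for Muc1 and -1.48 for Muc20 (edgeR adjusted p = 0.166 and 0.127), in a fit that called 0 of 3 members and 2.15% of 13267 genes. Without 32-week replicate 3 it was -0.14 for Muc1 and -0.41 for Muc20, and without 32-week replicate 4 it was -0.94 and -1.50 in that order. No member was called in the fits without replicates 2, 3 and 4, which called 0.0455%, 0.0837% and 0.13% of all genes, nor with total counts only, which called 0.0781%. With 2 libraries against 2, an exact permutation test cannot give a p under 0.333.

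**Figure D3:**
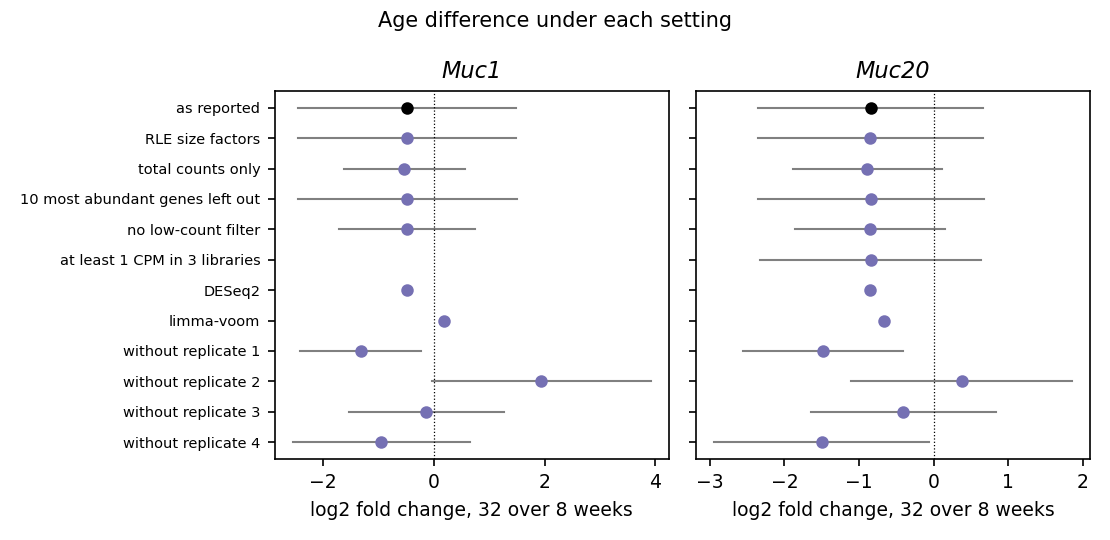
Log2 fold change of Muc1 and Muc20 at 32 over 8 weeks (horizontal axis) as reported and under each other setting (vertical axis), with 95% intervals as lines where edgeR gave them; Muc1 was not tested under the CPM filter. Both genes lie to the right of 0 without 8-week replicate 2, and Muc1 does so with limma-voom as well.

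Muc1 and Muc20 shared their highest and second highest library, which the choice of members did not use. Their shared highest library was also the highest for 34.7% of all genes tested, a larger share than for any other library. Sharing it is therefore common, and whether the genes are regulated together was not tested. Their promoters are shown as a description. The sequences are the 250 bases before the RefSeq start site on GRCm38.p6, a later build than that of the gene positions, written in the direction of the gene. Capitals mark matches, on either strand, of the TATA box, GC box and E-box letters spelled out after the sequences. RefSeq promoters were matched for 7 of the 10 listed genes. The Muc1 stretch is chr3:89228806-89229055 (plus strand) and the Muc20 stretch is chr16:32797436-32797685 (minus strand).
Muc1: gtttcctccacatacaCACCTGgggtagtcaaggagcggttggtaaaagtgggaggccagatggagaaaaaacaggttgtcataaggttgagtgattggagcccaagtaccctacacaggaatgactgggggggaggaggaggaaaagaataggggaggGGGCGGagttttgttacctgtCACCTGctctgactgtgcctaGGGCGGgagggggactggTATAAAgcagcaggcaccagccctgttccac
Muc20: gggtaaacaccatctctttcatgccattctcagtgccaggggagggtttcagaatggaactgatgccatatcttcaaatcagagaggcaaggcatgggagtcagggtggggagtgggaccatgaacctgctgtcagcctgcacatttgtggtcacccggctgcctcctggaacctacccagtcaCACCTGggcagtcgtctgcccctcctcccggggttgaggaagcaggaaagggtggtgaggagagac
The letters of the promoters differed, with a TATAAA in Muc1 that starts 31 bases before the start site and none in Muc20. TATAAA was present in 13.0% of the 27025 genes with a RefSeq promoter of that length. GGGCGG, the GC box, was present at 2 positions of Muc1, at none of Muc20 and in 32.9% of all promoters. CACCTG occurred at 2 positions of Muc1 and 1 of Muc20, and in 17.1% of all. Of the other letters searched, AAGTG was present in Muc1 and not in Muc20 (40.8% of all), and CACGTG was in neither (6.05%). TNAAGTG, a longer form containing AAGTG and typical of NK2 homeobox factors, was in neither (2713 genes in all, or 10%). Among the 7 listed genes with a matched promoter, TNAAGTG was in Muc13 only. A match or its absence describes these letters only.

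The genes whose levels were most like those of Muc1 and Muc20 over the 4 libraries were chosen among 6685 genes of at least 10 CPM, by the root mean square difference of centred log2 CPM. For Muc1 they were Duoxa2, the maturation factor of a hydrogen peroxide-producing oxidase (difference 0.36), Fn3krp, a kinase acting on glycated proteins (0.38), and Eno1b, a near-identical copy of an enolase gene (0.57), whose reads may be divided with that copy. Duoxa2 had 3.98 and 23.6 CPM at the younger age and 7.05 and 8.90 CPM at the older. For Muc20 they were Car6, the secreted carbonic anhydrase of saliva (0.27), Tspan8, a tetraspanin (0.30), and Psap, a lysosomal saposin precursor (0.33). Car6 had 907 and 2527 CPM at the younger age and 987 and 1480 CPM at the older. Muc1 and Muc20 differed from each other by 0.65 on the same measure. Both had a mean under 10 CPM, so neither was among the genes searched for the other. Such likeness over 4 libraries is a description.

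**Figure D4:**
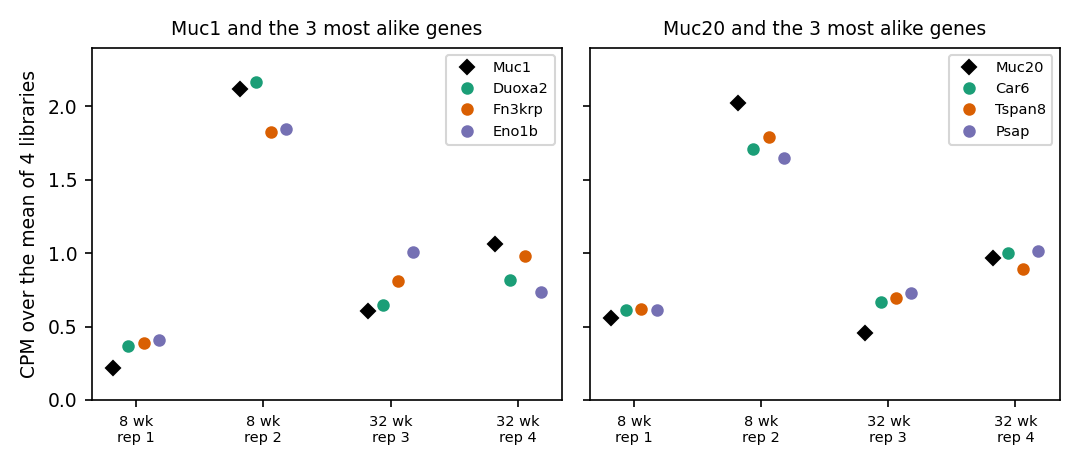
CPM of Muc1 (left) and Muc20 (right) and of the 3 genes most like each, divided by the gene's mean over the 4 libraries (vertical axis), by library (horizontal axis). All 8 genes drawn are highest in 8-week replicate 2 and lowest in 8-week replicate 1, except Muc20, which is lowest in 32-week replicate 3. The genes beside each mucin were chosen for likeness over these libraries, so their shared order is no separate result.

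Some duct genes were also highest in the library where Muc1 and Muc20 were highest. Of 13 tested duct markers, 8 had their highest CPM in 8-week replicate 2, or 61.5%, against 34.7% of all genes tested. The summed level of the 16 duct markers, all of them with reads, was 1120 and 1331 CPM at the younger age and 1215 and 1261 CPM at the older, with Krt18 and Krt8 holding most of it. Single duct markers ran both ways. Krt19, a keratin of duct cells, had 2.07 and 10.6 CPM at the younger age and 3.11 and 8.43 CPM at the older. Fxyd2, a sodium pump subunit, had 102 and 365 CPM at the younger age and 116 and 112 CPM at the older. Krt18, another epithelial keratin, was lowest in 8-week replicate 2, with 755 and 633 CPM in the 8-week libraries and 789 and 859 CPM in the 32-week libraries. Krt8 and Elf5 were lowest in that library too. The serous and demilune markers ranged from 315100 to 523100 CPM in sum, highest in 32-week replicate 3. Of 9 tested serous and demilune markers, 2 were highest in 8-week replicate 2, and of 8 tested mucous acinar markers, 0 were. The part of cell composition in the Muc1 and Muc20 levels was not tested, and in whole glands fewer cells of a type and less RNA per cell cannot be told apart.

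Muc13, Muc15 and Muc4 were the membrane mucins with few reads. Muc13 (chr16:33794123-33820020, plus strand), a mucin of intestinal and airway surfaces with growth factor-like domains, had 5 and 10 reads at 8 weeks and 8 and 2 reads at 32 weeks. Only 32-week replicate 4 was within the limit of 3 reads, and the ages overlapped. Muc15 (chr2:110561497-110579684, plus strand), first known from milk fat membranes, had 2 and 4 reads at 8 weeks and 2 and 1 reads at 32 weeks, within the limit in all libraries but 8-week replicate 2. Its counts tied between 8-week replicate 1 and 32-week replicate 3, and its ages were apart in CPM only through the scaling. Muc4 (chr16:32735972-32782477, plus strand), a large mucin that binds the receptor ErbB2, had 0 and 1 reads at 8 weeks and 0 and 2 reads at 32 weeks. With the filter on low counts left out, edgeR gave log2 fold changes of -0.71 for Muc13 (SE 0.83) and -1.10 for Muc15 (SE 1.31), and the smallest adjusted p among the 8 members fitted was 0.995, in a fit that called 7 of 18104 genes (0.0387%).

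The coding repeat of Muc13 shows where short reads from a mucin cannot be assigned to 1 position. At chr16:33799087-33799491 (NCBIM37, plus strand), inside a single coding exon, 5 identical copies of an 81-base unit follow each other over 405 bases. Capitals in the unit mark the codons for serine and threonine, the residues that carry O-linked sugars, 10 and 5 of its 27 codons.
Muc13 repeat unit: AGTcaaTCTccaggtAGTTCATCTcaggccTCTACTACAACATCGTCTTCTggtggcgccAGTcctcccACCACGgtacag
Of all 50-base words in the longest coding transcript of Muc13, 14.2% occurred more than once within it. The corresponding share was 21.9% for Muc5b, 12.8% for Muc6, 10.1% for Muc4, 1.28% for Muc1 and 0% for Muc20, Muc15, Muc2 and Muc5ac. For Muc2, where 62.5% of the gene span is unsequenced, the 0% covers only the annotated sequence. Compared on the same strand, no such word of the 9 genes occurred in a coding transcript of another gene. The sources used here state neither the read length nor how reads with several positions were handled, and the part of these repeats in the counts was not tested.

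Muc20 and Muc4 are neighbours on opposite strands, and their annotated spans share 4973 bases. Their exons share 627 bases, which is 15.6% of the merged exons of Muc20 and 5.33% of those of Muc4, all within the last exon of 1 of the 2 Muc20 transcripts. The sources used here do not state whether counting used strand, so a read in those bases could be given to either gene or to neither. Muc4 had 3 reads in all, against 119 for Muc20. Muc15 lies within the span of Ano3 on the opposite strand and shares 61 exon bases with it, and Ano3 had 0 reads in each library. Muc13 shares 2838 bases of its span, and 184 exon bases, with Gm15657 on the opposite strand. Gm15657 had no row among the genes counted.

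**Figure D5:**
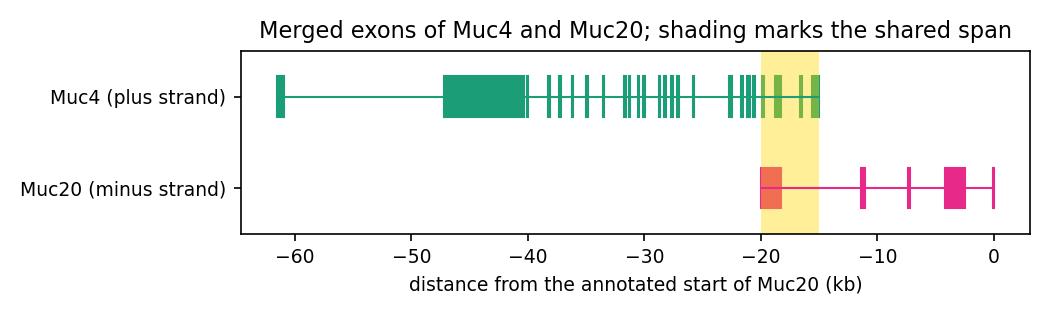
Merged exons (boxes) of Muc4 and Muc20 on their strands, by distance from the annotated start of Muc20 in kilobases (horizontal axis). The shaded stretch of 4973 bases is where the spans of the genes overlap, and it holds the last exon of Muc20.

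Levels of different genes were ordered as CPM per kilobase of merged exons. Muc1 had the highest mean, 0.584 CPM per kilobase (0.126 to 1.24 over the 4 libraries), and Muc20 the next, 0.492 (0.223 to 0.995). Muc1 stood above Muc20 on this scale in 3 of 4 libraries, and their ranges overlapped. Muc13 had a mean of 0.142 CPM per kilobase, below Muc20 in 4 of 4 libraries, and Muc15 had 0.0434, below Muc13 in 4 of 4. Muc6 (0.0226), Muc2 (0.00998), Muc4 (0.00394), Muc5b (0.00212) and Muc5ac (0) followed, in an order of mean levels that rests on 12 reads or fewer per gene. The ranges of every pair of neighbours in this order overlapped. Muc19 had 1555 to 2623 CPM per kilobase over the libraries on its annotated exons, and its mean of 2034 became 4006 on its longest annotated transcript.

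Other mucins and mucin-like glycoproteins were mixed in direction. Of 17 listed, 13 had a row and 11 were tested, and edgeR called 0 in either direction. Positive log2 fold changes were given for 6 and negative ones for 5, with a median of 0.02 beside -0.01 over all genes tested. The most abundant, Smgc, a secreted sublingual protein whose gene span shares 23113 bases, 95 of them in exons of both, with that of Muc19 on the same strand, had 142100 and 73280 CPM at the younger age and 41970 and 125900 CPM at the older. Spt1, on the list as Mucl2, had 65020 and 3654 CPM at the younger age and 3102 and 36100 CPM at the older. Like Smgc, it was higher in replicates 1 and 4 than in replicates 2 and 3. Groups did not overlap for 4 members higher and 3 lower at 32 weeks, against 14.4% and 14.2% of all genes tested (28.6% in either direction). Prol1, a small mucin-type salivary protein, is among the lower ones, with 2658 and 2946 reads at 8 weeks and 145 and 7 reads at 32 weeks (log2 fold change -5.28, edgeR adjusted p = 0.999). It was called with total counts only, with no low-count filter and without replicate 1, 3 or 4, and not in the reported fit.

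Of the 16 listed partners of gel-forming mucins, 6 passed the filter on low counts. Creb3l1, a membrane-bound transcription factor of secretory cells and the most abundant tested member, had 745 and 394 CPM at the younger age and 700 and 700 CPM at the older. Spdef, a factor of mucous cell differentiation, had 133 and 88.0 CPM at the younger age and 130 and 146 CPM at the older. Tff1, Tff3, Clca1, Itln1 and Ern2 had 0 reads in every library. The secreted proteins Fcgbp and Vwf had 11.2 to 15.1 CPM and 39.6 to 87.4 CPM over the libraries. Of the 6 tested, 0 were called by edgeR, and 5 of the 6 log2 fold changes were positive, with a median of 0.31. Without 8-week replicate 2 that median was 0.07. Agr2, a disulfide isomerase of mucin folding, had 57.2 CPM in 8-week replicate 1 and 5.59 CPM in replicate 2, and 49.6 and 49.7 CPM at 32 weeks. It was called only in the fit without replicate 1. Among the 6 tested partners, Agr2, Creb3l1, Spdef and, by a small margin, Fcgbp were lowest in 8-week replicate 2, while Creb3l4 was highest there, with 364 CPM against 261 to 287 CPM in the others.

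None of the binding partners of membrane mucins passed the test. All 20 listed partners were tested with edgeR, 0 were called, and 12 had positive and 8 negative log2 fold changes, with a median of 0.04. Erbb2, the receptor bound by Muc4, had 24.3 and 16.0 CPM at the younger age and 21.8 and 22.5 CPM at the older. Erbb3, its partner receptor, had 22.9 and 42.7 CPM at the younger age and 22.9 and 27.5 CPM at the older, highest in 8-week replicate 2. Egfr had 8.49 to 12.6 CPM over the libraries. Met, the receptor bound by Muc20, had 12.2 and 16.6 CPM at the younger age and 14.7 and 10.6 CPM at the older. Ctnnb1, beta-catenin, ranged only from 128 to 143 CPM. Lgals3, a lectin that binds mucin sugars, had 7.53 and 7.18 CPM at the younger age and 8.23 and 15.8 CPM at the older. Both 32-week libraries were above both 8-week ones, as for 14.4% of all genes tested, with 32-week replicate 4 the highest. Its log2 fold change was 0.71 (SE 0.32, edgeR adjusted p = 0.999). Ezr, a linker of membrane proteins to actin, had 24.1 to 40.0 CPM. Msln, mesothelin, a known ligand of Muc16, had 36.2 and 36.7 CPM at the younger age and 17.7 and 39.0 CPM at the older, lowest in 32-week replicate 3. Of the other mesothelial markers, Upk3b and Lrrn4 had 0 reads in every library, Upk1b had 1 read in all and Wt1 had 0 to 3 reads a library. Jup, a junction protein, was the most abundant partner at 139 to 155 CPM.

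Proteases that can release membrane mucins and apical membrane proteins of the epithelium also held no called gene. Of 8 listed proteases 7 were tested with edgeR, 0 were called, and the median log2 fold change was 0.07 (4 positive, 3 negative). Adam9, the most abundant of them, had 89.2 and 68.9 CPM at the younger age and 92.9 and 103 CPM at the older. Of 16 apical membrane genes, all were tested, 0 were called, and the median was -0.08 (7 positive, 9 negative). Pigr, the antibody transporter and most abundant of them, had 1668 and 1317 CPM at the younger age and 1728 and 1822 CPM at the older. Over these 16 genes 7, or 43.8%, were highest in 8-week replicate 2, against 34.7% of all genes, and as many were highest in 32-week replicate 4, against 20.6% of all genes.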

How the data were processed

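STAR and the mouse build mm9 are named in the submitters' processing notes. For each of 4 libraries the authors deposited raw counts by gene symbol, not normalized. Their counting tool, annotation and strand setting: not given in the sources used here. Depth is given in the report.

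The members, lists and tests were chosen with earlier results of these data known. All 4 libraries were fitted by age alone with edgeR 4.0.16 (quasi-likelihood test, TMM, default low-count filter, Benjamini-Hochberg over 12810 genes) in R 4.3.3, and only the mucin and list rows were read. The scripts were tested on simulated data. Alternatives were other scalings, filters, DESeq2 1.42.0, limma 3.58.1 (voom) and each library left out. Named genes are the members, the most abundant and the called genes of each list, fixed partners, and the 3 genes most like each tested mucin; others, such as Prol1, Spdef, Agr2, Creb3l4, Krt18, Krt19, Fxyd2 and genes at 0, were named after their values were seen. Likeness used a pseudocount of 0.5 reads. Gene positions and exon lengths are from GENCODE vM1 on NCBIM37. Missing list symbols were matched through RefSeq synonyms.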

Additional observations from a re-analysis of the deposited data

How the results depend on the processing

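Muc1 had a positive log2 fold change with limma-voom (0.19, adjusted p = 0.999), and both Muc1 (1.94) and Muc20 (0.37) had one without replicate 2. With 1 library left out in turn, Muc1 lay between -1.32 and 1.94 and Muc20 between -1.50 and 0.37; the lone library of an age was assumed to vary like the others. Muc1 was not tested under the CPM filter. Under the other scalings, filters and tools that could fit them, both stayed negative, and no member was called under any setting run. No paired analysis was possible because the ages share no replicate number.

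Genes called over the whole table were 1 higher and 9 lower with total counts only, 7 lower with no low-count filter and 3 lower with DESeq2. They ranged from 0 to 195 higher and from 6 to 90 lower with 1 library left out, highest without replicate 1. The number of members detected, 2 as reported, was 5 with at least 1 count in every library (Muc6, Muc1, Muc13, Muc15 and Muc20) and 1 with at least 1 CPM in at least 3 libraries (Muc20).

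Of 24 levels of members with reads under another scaling or length, 24 moved by less than the spread between libraries. Among the lists, the median of other mucins was 0.20 without the 10 most abundant genes and -0.20 to 0.23 with 1 library left out. Its called members were 1 (Prol1) with total counts only and with no low-count filter, and 0 to 1 with 1 library left out. With 1 library left out the medians ranged from 0.074 to 0.47 for gel-forming partners, from -0.010 to 0.11 for binding partners and from -0.15 to 0.17 for apical proteins. Binding partners had a median of -0.049 with total counts only. Without replicate 1, Agr2 and Grb2 were called, 1 in each of 2 lists and 0 without each other library. The cause of these changes was not tested. Depth limits every statement on the 7 members under 11 reads a library.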
